A study of Rattus norvegicus with 13 samples.

Results

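The prolactin and growth hormone pathway was followed through 9 genes in rat mammary epithelial cells: the receptors Prlr and Ghr, the kinase Jak2, the transcription factors Stat5a and Stat5b, and the feedback inhibitors Cish, Socs1, Socs2 and Socs3. They were picked by gene symbol from a table of 14790 genes, which holds 8 of them. Socs2 was not analysed here. RNA was sequenced from 13 Wistar-Furth rats, a strain susceptible to mammary cancer, with 1 library per rat. The 6-week group, inside the window of susceptibility (WOS) to mammary cancer, had 6 rats, and the 10-week group, outside WOS, had 7. No treatment is given for either age, and the stage of the estrous cycle is not stated in the sources used here. The cells were ductal fragments of abdominal and inguinal glands, kept on a filter after collagenase digestion per the labels. By the study's methods such fragments are mostly epithelial and also hold fibroblasts and immune cells. The comparison asks which genes differ inside and outside WOS.

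Prolactin and growth hormone bind class I cytokine receptors that have no kinase activity of their own and signal through the kinase JAK2. JAK2 phosphorylates STAT5A and STAT5B, which form dimers, enter the nucleus and bind short palindromic DNA sites in their target genes. In the mammary gland this pathway is known for alveolar development and for the transcription of milk protein genes such as Csn2 (beta-casein) and Csn1s1 (alpha-s1-casein). CISH and the SOCS proteins are induced by the pathway and then restrain it. RNA levels do not measure phosphorylation, so the values below describe the supply of transcripts and the transcripts of target genes, not signalling itself.

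The binding site of STAT5 dimers, TTCNNNGAA, reads the same on both strands. It was searched in RefSeq promoter windows of the GRCr8 build, which run from 250 bases before to 50 bases after each start. Of 33469 windows, 8.87% hold the motif at least once, 0.547% at least 2 times and only 2 windows at least 4 times. Cish, a classical STAT5 target, is 1 of those 2, with motifs that begin 241, 230, 136 and 119 bases before its start. Socs1 has 1 motif, 196 bases before its start, and Prlr has 1 at one of its 2 starts, 176 bases before it. No match lies in the windows of Ghr, Jak2, Stat5a, Stat5b and Socs3, so 3 of 8 genes hold the motif. The casein genes Csn2 and Csn1s1 each hold 1, at 97 and 100 bases before the start. These 5 stretches are shown because they set the motifs of the inhibitors and of a receptor beside those of the milk genes, with motifs in capitals and all read 5′ to 3′ along the gene.
Cish, chr8:116850719-116850878, plus strand: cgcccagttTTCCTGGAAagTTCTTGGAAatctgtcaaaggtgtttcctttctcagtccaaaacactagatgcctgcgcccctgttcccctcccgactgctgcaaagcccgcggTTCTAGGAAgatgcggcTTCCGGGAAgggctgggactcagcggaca
Socs1, chr10:5389338-5389426, plus strand: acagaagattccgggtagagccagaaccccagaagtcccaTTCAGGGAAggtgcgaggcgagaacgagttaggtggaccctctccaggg
Prlr, chr2:60909443-60909531, plus strand: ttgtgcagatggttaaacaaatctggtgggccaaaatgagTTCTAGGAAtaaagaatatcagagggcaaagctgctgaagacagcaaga
Csn2, chr14:20601687-20601775, plus strand: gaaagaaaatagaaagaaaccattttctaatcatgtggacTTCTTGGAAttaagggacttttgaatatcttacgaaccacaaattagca
Csn1s1, chr14:20638901-20638989, minus strand: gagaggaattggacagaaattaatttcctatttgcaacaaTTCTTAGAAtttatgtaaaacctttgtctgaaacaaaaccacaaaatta
A match is a run of letters in a window, and no binding was measured in these cells.

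Levels are given as normalized counts, which are estimated counts that the authors scaled per library and rounded. The totals ran from 13261906 to 15659533 over the rats. Of the whole numbers from 1 to 30, up to 16 occur for no gene in a given library, so that library was scaled up and its low values rest on few reads. Differentially expressed (DE) means an adjusted p under 0.05 in limma, and a log2 fold change above 0 is higher at 6 weeks. Between the ages 2381 of 14790 genes (16.1%) were DE, of which 8.71% of all genes were higher at 6 weeks and 7.39% higher at 10 weeks, and 6.07% had no overlap between the ages. With age means subtracted, the largest gap on the first component of variation parted the rats into a larger set of 8 (rats 70, 71, 84 and 86 at 6 weeks, 72, 74, 85 and 87 at 10 weeks) and a smaller set of 5 (75 and 80 at 6 weeks, 78, 81 and 83 at 10 weeks). Within the larger set 23.5% of genes were DE. The epithelial label held for its markers, since all 7 luminal keratin, adhesion and claudin genes were present at summed counts of 44175 to 85824. Fibroblast genes were abundant too, with sums of 105605 to 221205 at 6 weeks and 18981 to 54962 at 10 weeks, and 3 of 6 were DE, all higher at 6 weeks (Col3a1, Col1a1 and Lum). Of the luminal genes 2 of 7 were DE and higher at 10 weeks, Cdh1 and Epcam. Basal, macrophage, endothelial and muscle lists had 0 DE genes, and the lymphocyte genes had sums of 0 to 101 with 1 of 3 DE. In bulk samples, fewer cells of a type and less RNA per cell cannot be told apart.

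Of the 8 genes, 0 were DE between the ages by limma, against 16.1% of all genes, and 0 had an unadjusted p under 0.05. None was without overlap, against 6.07% of all genes. Their log2 fold changes ran from -0.21 to 0.23, with 5 below 0 and 3 above 0 and a median of -0.069, beside 0.028 for all genes. Adjusted p-values ran from 0.290 to 0.986. In the larger set, too, 0 of 8 were DE, against 23.5% of all genes, though 2 had an unadjusted p under 0.05 there, Socs1 at 0.0227 and Jak2 at 0.0264. The intervals below bound how large a difference could be, and a value that misses the threshold does not show equal levels.

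**Figure D1:**
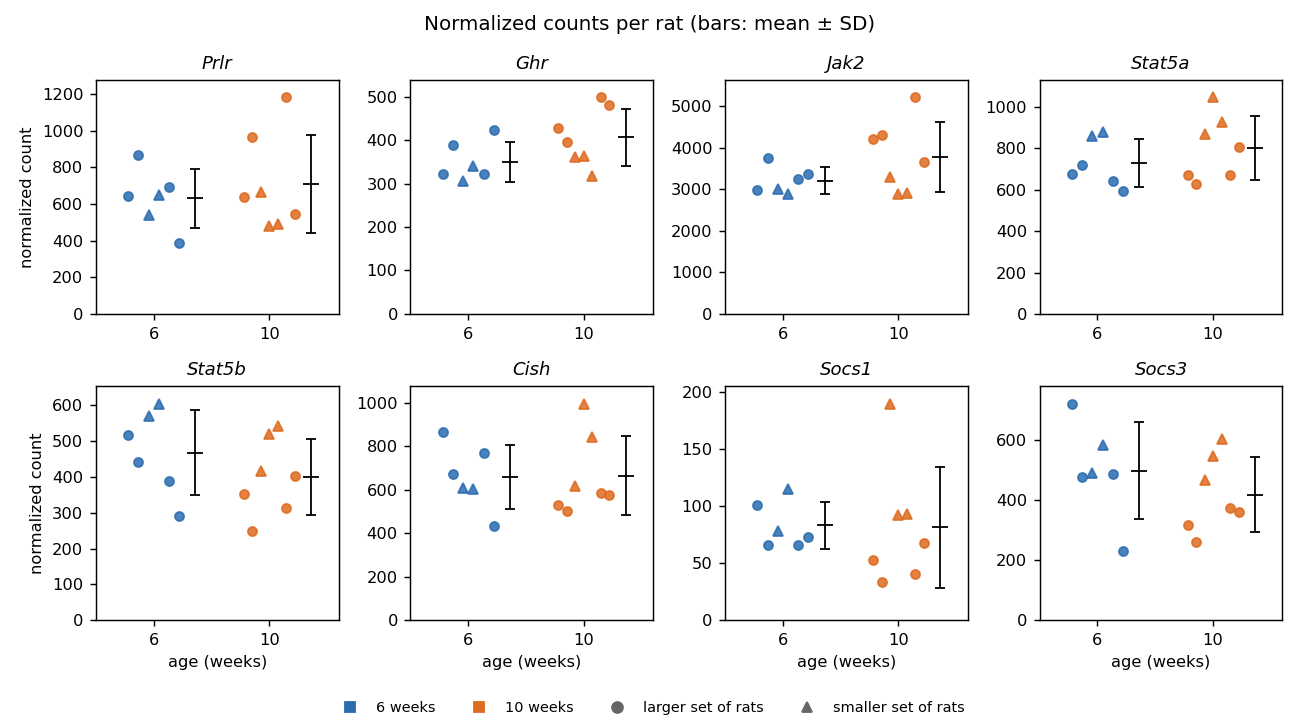
Normalized count (vertical axis, linear from 0) of each of 8 genes in every rat by age in weeks, with circles for the larger and triangles for the smaller set of rats and bars for mean and SD (n = 6 and 7). The ages overlap for all 8 genes. The triangles lie above all circles for Stat5a and Stat5b at both ages, and for Socs1 and Socs3 at 10 weeks only. For Jak2 they lie below all circles at 10 weeks.

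Prlr encodes the prolactin receptor, which in the adult gland marks mainly hormone-sensing luminal cells. At 6 weeks it ranged from 390 to 869 with a median of 648, and at 10 weeks from 479 to 1184 with a median of 638. The ages overlapped almost fully, with rat 85 at 10 weeks highest and rat 86 at 6 weeks lowest. The log2 fold change was -0.13 (SE 0.24, 95% interval -0.65 to 0.38, adjusted p = 0.737). Its direction was not stable, at -0.35 in the larger set and 0.14 in the smaller set.

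Ghr encodes the growth hormone receptor, which in the gland is known mainly from stroma and fat. It had the narrowest range of the 8 genes, 306 to 423 (median 331.5) at 6 weeks and 318 to 499 (median 395) at 10 weeks, with a highest value 1.63 times the lowest over all rats. Rats 72, 85 and 87, all aged 10 weeks, exceeded the highest 6-week value. Its log2 fold change was -0.21 (SE 0.13, 95% interval -0.48 to 0.071, adjusted p = 0.290). Of 6 adipocyte markers 3 were DE, all higher at 6 weeks. Lpl (log2 fold change 0.53), Cidec (0.50) and Fabp4 (-0.09) were not DE, nor was Ghr itself. The part of adipocyte markers in the Ghr value was not tested.

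Jak2, the kinase bound to both receptors, ranged from 2900 to 3758 (median 3129) at 6 weeks and from 2884 to 5225 (median 3652) at 10 weeks. Rats 72, 74 and 85 at 10 weeks exceeded all rats at 6 weeks, while rats 81 and 83 at 10 weeks were as low as the lowest of them. This gave a log2 fold change of -0.21 (SE 0.15, 95% interval -0.53 to 0.10, adjusted p = 0.340). It was -0.37 in the larger set and -0.035 in the smaller set.

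Stat5a, the STAT5 protein that dominates in the secretory gland, ranged from 595 to 877 (median 697.5) at 6 weeks and from 628 to 1048 (median 808) at 10 weeks. Stat5b, its close paralog with a larger part in growth hormone responses of liver and muscle, ranged from 291 to 604 (median 477.5) at 6 weeks and from 249 to 541 (median 403) at 10 weeks. Both genes overlapped between the ages, and the medians moved in opposite directions. The log2 fold change was -0.13 for Stat5a (SE 0.15, 95% interval -0.45 to 0.18, adjusted p = 0.567). That of Stat5b was 0.23 (SE 0.21, 95% interval -0.23 to 0.69, adjusted p = 0.484).

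The balance of the STAT5 genes differed between the ages, while neither gene alone was DE. The log2 ratio of Stat5a to Stat5b was 0.39 in rat 70, 0.71 in rat 71, 0.60 in rat 75, 0.54 in rat 80, 0.73 in rat 84 and 1.03 in rat 86 at 6 weeks. At 10 weeks it ran from 0.77 in rat 83 to 1.33 in rat 74, with the other 5 rats between them. Thus 5 of 6 rats at 6 weeks lay below every rat at 10 weeks, and rat 86 was the exception. The mean was 0.66 ± 0.22 (SD, n = 6) at 6 weeks and 1.03 ± 0.17 (SD, n = 7) at 10 weeks, a difference of -0.36 (two-sided exact permutation test, p = 0.00758, adjusted p = 0.0152 over 2 ratios). With each rat left out in turn the difference ran from -0.44 to -0.31 and the exact permutation p from 0.00126 to 0.0189. The difference was -0.38 within the larger set (exact permutation p = 0.0857 over 70 arrangements) and -0.38 within the smaller set (exact permutation p = 0.2 over 10 arrangements, a design that cannot go below 0.1). The ratio is a change between ages and not a comparison of the levels of the genes, since their lengths were not taken into account. Stat5a and Stat5b are near-identical over much of their sequence and lie next to each other, with 0 genes between them in RefSeq, so the way reads were divided between them is uncertain.

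The same ratio for the receptors, Prlr to Ghr, was 0.82 ± 0.47 (SD, n = 6) at 6 weeks and 0.74 ± 0.42 (SD, n = 7) at 10 weeks. The difference of 0.074 was smaller than the spread between rats (exact permutation p = 0.769).

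**Figure D2:**
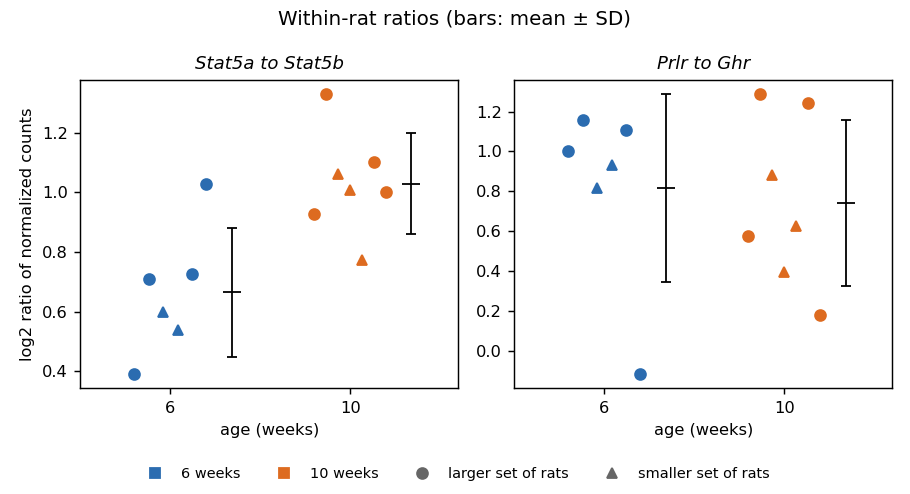
Log2 ratio of normalized counts within each rat (vertical axis) by age in weeks, for Stat5a to Stat5b and for Prlr to Ghr, with circles and triangles for the larger and smaller set of rats and bars for mean and SD. Of the rats at 6 weeks, 5 of 6 lie below all rats at 10 weeks for the STAT5 ratio, while the receptor ratio overlaps.

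Cish, the inhibitor with 4 motifs in its promoter, ranged from 435 to 867 (median 639) at 6 weeks and from 505 to 997 (median 585) at 10 weeks. Its log2 fold change was -0.0055 (SE 0.19, 95% interval -0.42 to 0.41, adjusted p = 0.986). Rats 81 and 83 at 10 weeks and rat 70 at 6 weeks were highest, so the high values were found at both ages. The change was 0.27 in the larger set and -0.41 in the smaller set.

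Socs1, which blocks JAK kinases directly, was the least certain of the inhibitors. It ranged from 66 to 115 (median 75.5) at 6 weeks and from 34 to 190 (median 68) at 10 weeks. Its highest value over all rats was 5.59 times the lowest, the widest span of the 8 genes, and rat 78 at 10 weeks was far above the rest. The log2 fold change was 0.21 (SE 0.34, 95% interval -0.52 to 0.94, adjusted p = 0.701), with 0.66 in the larger set and -0.31 in the smaller set.

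Socs3, which inhibits JAK2 at the receptor and is also induced by interleukin 6 family signals, ranged from 230 to 722 (median 489.5) at 6 weeks and from 260 to 605 (median 374) at 10 weeks. Rat 70 was highest and rat 86 lowest, both at 6 weeks. This gave a log2 fold change of 0.23 (SE 0.26, 95% interval -0.33 to 0.79, adjusted p = 0.583). It was 0.45 in the larger set and -0.0041 in the smaller set.

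Other genes of the pathway were DE in 14 of 91 records (15.4%), near the 16.1% of all genes, with 4 higher at 6 weeks and 10 higher at 10 weeks. The 6 listed ligand genes were not analysed here. Other STAT genes were among them. Stat2, known from type I interferon responses, ranged from 575 to 635 at 6 weeks and from 361 to 448 at 10 weeks, with no overlap and a log2 fold change of 0.60 (SE 0.086, adjusted p = 0.000784). Stat6, the interleukin 4 and 13 factor, was higher at 10 weeks, at -0.45 (SE 0.095, adjusted p = 0.00812). Stat3, known for its part in involution, was at -0.31 (SE 0.099, adjusted p = 0.0490), a call lost in all 13 fits that left out 1 rat. These 3 genes had no overlap between the ages, as had 6.07% of all genes. They were named because they were DE, so a contrast with Stat5a and Stat5b, which overlapped, follows in part from that choice. Of the further JAK genes, Jak1, Jak3 and Tyk2 were not DE (adjusted p = 0.0996, 0.521 and 0.360 in limma). The difference between the STAT genes was not tested.

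**Figure D3:**
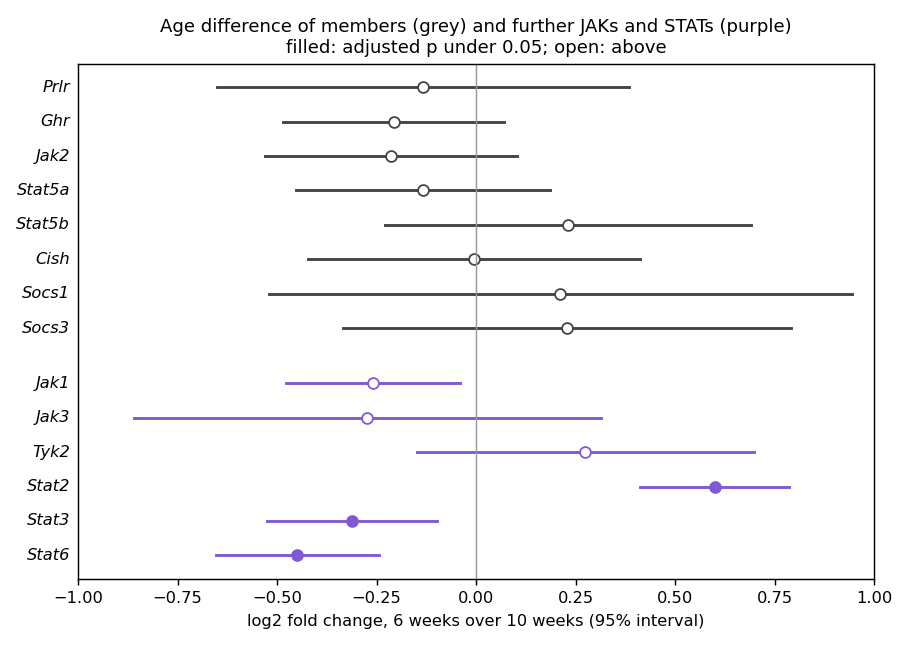
Log2 fold change of 6 over 10 weeks (horizontal axis) with its 95% interval for the 8 genes (grey) and 6 further JAK and STAT genes (purple), filled where the adjusted p was under 0.05. All 8 grey intervals cross 0, while Stat2 lies above 0 and Stat3 and Stat6 below it.

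Among class I cytokine receptors 2 of 14 were DE. Il7r, the interleukin 7 receptor of lymphoid cells, was at -0.91 (SE 0.23, adjusted p = 0.0195), and Il11ra1 at 0.77 (SE 0.22, adjusted p = 0.0338). Il11ra1 was DE in only 5 of 13 fits that left out 1 rat. The adaptors gave 2 of 17, both higher at 10 weeks. They were the kinase Tec (-0.48, adjusted p = 0.0145) and the exchange factor Sos1 (-0.43, adjusted p = 0.0325), of which Sos1 was DE in 6 of 13 such fits. Of 19 further negative regulators 2 were DE, and both were SOCS genes higher at 10 weeks. Socs7 ranged from 59 to 80 at 6 weeks and from 90 to 145 at 10 weeks (-0.64, adjusted p = 0.00610), and Socs5 from 2697 to 3269 and from 3539 to 4016 (-0.29, adjusted p = 0.0303). Socs7 was DE in 13 of 13 such fits and Socs5 in 8. Neither overlapped between the ages, unlike Cish, Socs1 and Socs3, but they were named because they were DE. Socs4 and Socs6 were not DE (adjusted p = 0.219 and 0.105 in limma).

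Of 13 records of STAT5 cofactors 3 were DE. The coactivator Ncoa1 was higher at 10 weeks (-0.58, SE 0.095, adjusted p = 0.00179), as was Nfib, which acts with STAT5 at milk genes (-0.42, adjusted p = 0.0272). Nmi, which binds STAT proteins, was higher at 6 weeks (0.71, adjusted p = 0.0441). With 1 rat left out Nfib was DE in 8 of 13 fits and Nmi in 2, while Ncoa1 was DE in all 13. Among 13 further STAT5 targets 1 was DE, the growth regulator Myc, from 2731 to 3566 at 6 weeks and from 4234 to 6359 at 10 weeks (-0.73, SE 0.12, adjusted p = 0.00172). Of 8 milk protein targets 0 were DE.

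Both caseins varied between rats far more than the pathway genes. Csn2 was at 270, 2, 19, 6, 1473 and 1580 in rats 70, 71, 75, 80, 84 and 86 at 6 weeks. At 10 weeks it was at 21, 11, 171, 13439, 4, 4 and 26 in rats 72, 74, 78, 81, 83, 85 and 87. High values occurred at both ages, and rat 81 alone held the highest. Csn1s1 ranged from 5205 to 44111 (median 14106) at 6 weeks and from 3067 to 153585 (median 6335) at 10 weeks, again with rat 81 highest. The log2 fold change was 0.81 for Csn2 (SE 2.03, adjusted p = 0.815) and 0.36 for Csn1s1 (SE 0.87, adjusted p = 0.807). Both reversed between the sets of rats, from 3.92 to -4.26 for Csn2 and from 1.78 to -1.95 for Csn1s1 in the larger and smaller set.

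Relations with the caseins were taken over the 13 rats without subtracting age means. So taken, the caseins followed each other (Pearson r = 0.964, permutation p = 1e-05, the smallest the resamples can give, Spearman rho = 0.856, permutation p = 0.00037, r = 0.920 without rats 81 and 86, the 2 farthest). The pathway genes did not pass the test with either casein. Of 16 relations 0 had an adjusted permutation p under 0.05, and 0 an unadjusted one, with r from -0.52 to 0.35 and a lowest adjusted p of 0.675 for r and 0.922 for rho. The lowest r was that of Prlr with Csn2 (r = -0.52, permutation p = 0.0673, rho = -0.49, permutation p = 0.0901), and without rats 81 and 86 it was -0.22. In the larger set alone Csn1s1 had r = -0.82 with Jak2 (permutation p = 0.0118, unadjusted) and r = -0.73 with Prlr (permutation p = 0.0378, unadjusted), and Csn2 had r = -0.74 with Jak2 (permutation p = 0.0361, unadjusted). None of these passed after adjustment. Within the ages 1 of 32 tests had an unadjusted p under 0.05. This was Stat5a with Csn1s1 at 6 weeks, at r = -0.91, and at 10 weeks the same relation had r = 0.66. The difference between the ages was not tested.

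**Figure D4:**
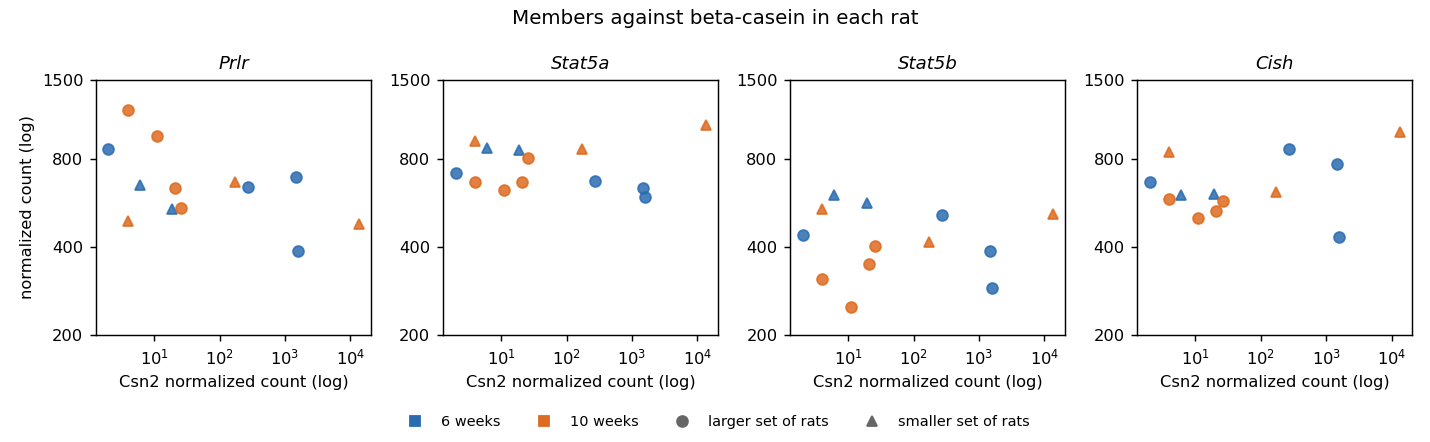
Normalized counts of Prlr, Stat5a, Stat5b and Cish (vertical axes, log scale) against that of Csn2 (horizontal axis, log scale) in each rat, coloured by age, with circles and triangles for the larger and smaller set. Csn2 runs from 2 to 13439 while the 4 genes stay between 249 and 1184, and r with Csn2 is lowest for Prlr, at -0.52.

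Among themselves some of the 8 genes varied together. Of 28 pairs 15 had an adjusted permutation p under 0.05 over the 13 rats with age removed, 10 of them positive and 5 negative, and 13 did not pass. An absolute r of at least 0.7 was found in 9 of 28 pairs (32.1%), beside 12.04% of all pairs of the 8858 genes with a mean of at least 100. Socs1, with means of 83.2 and 81.6 at 6 and 10 weeks, lies below that level, though its pairs are among the 28. Prlr passed with 1 of 7 partners, Jak2. Within 6 weeks Prlr had r = 0.27, 0.45, 0.72 and 0.69 with Stat5a, Stat5b, Cish and Socs3. Within 10 weeks these were -0.80, -0.86, -0.66 and -0.64. With Ghr r was -0.28 and 0.55 at 6 and 10 weeks, while with Jak2 and Socs1 the sign was the same at both ages. These differences between the ages were not tested. Stat5a and Stat5b were the closest pair (r = 0.91, rho = 0.95, adjusted permutation p = 0.0014 and 0.00084; r = 0.89 without the 2 farthest rats), at 0.89 within 6 weeks, 0.93 within 10 weeks and 0.82 in the larger set. Stat5b rose with Socs3 (r = 0.87, rho = 0.85, adjusted permutation p = 0.00383 and 0.00941, r = 0.72 without the 2 farthest rats, r = 0.86 in the larger set). Cish rose with Socs3 (r = 0.87, rho = 0.78, adjusted permutation p = 0.00383 and 0.0177, r = 0.87 without the 2 farthest rats, r = 0.95 in the larger set).

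Jak2 ran against both STAT5 genes, Socs1 and Socs3. Its r was -0.79 with Stat5a (rho = -0.78, adjusted permutation p = 0.0209 and 0.0177, r = -0.74 without the 2 farthest rats) and -0.75 with Stat5b (rho = -0.87, adjusted permutation p = 0.0209 and 0.00941, r = -0.76 without them). With Stat5a r was -0.48 within 6 weeks and -0.91 within 10 weeks, and with Stat5b -0.61 and -0.87. The part of the sets of rats in these values was not tested, though within the larger set r was only -0.39 and -0.40. Jak2 with Socs1 held there, at -0.75 over all rats (rho = -0.85, adjusted permutation p = 0.0366 and 0.00941, r = -0.75 without the 2 farthest rats) and -0.78 in the larger set. With Socs3 r was -0.60 (rho = -0.80, adjusted permutation p = 0.0406 and 0.0168, r = -0.69 without the 2 farthest rats) and -0.26 in the larger set. Jak2 with Cish did not pass (r = -0.60, rho = -0.52, adjusted permutation p = 0.0625 and 0.132). Jak2 rose with both receptors by r, though rho missed the threshold for each. With Ghr r was 0.75 (rho = 0.67, adjusted permutation p = 0.0330 and 0.0569, r = 0.68 without the 2 farthest rats, r = 0.49 in the larger set). With Prlr r was 0.73 (rho = 0.63, adjusted permutation p = 0.0336 and 0.0729, r = 0.79 without the 2 farthest rats, r = 0.68 in the larger set).

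Of the whole numbers from 1 to 30, the smaller set lacked 10, 15, 16, 7 and 0 in rats 75, 80, 78, 81 and 83. The larger set lacked 0 in rats 70, 71, 84, 86 and 85, 4 in rats 72 and 87, and 8 in rat 74. The part of library scaling in the first component was not tested. The component that parts the sets of rats was followed by some of the genes. The correlation with it was -0.885 for Stat5a, -0.858 for Socs1, -0.809 for Stat5b and 0.787 for Jak2. Thus 4 of 8 genes had an absolute r of at least 0.7, beside 28.2% of the 8858 genes with a mean of at least 100. Socs1, 1 of these 4, lies below that mean. The correlation was -0.645 for Socs3 and 0.624 for Ghr. For Cish it was -0.422 and for Prlr 0.392, both of smaller size than the median absolute r of 0.520 over the 8858 genes.

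**Figure D5:**
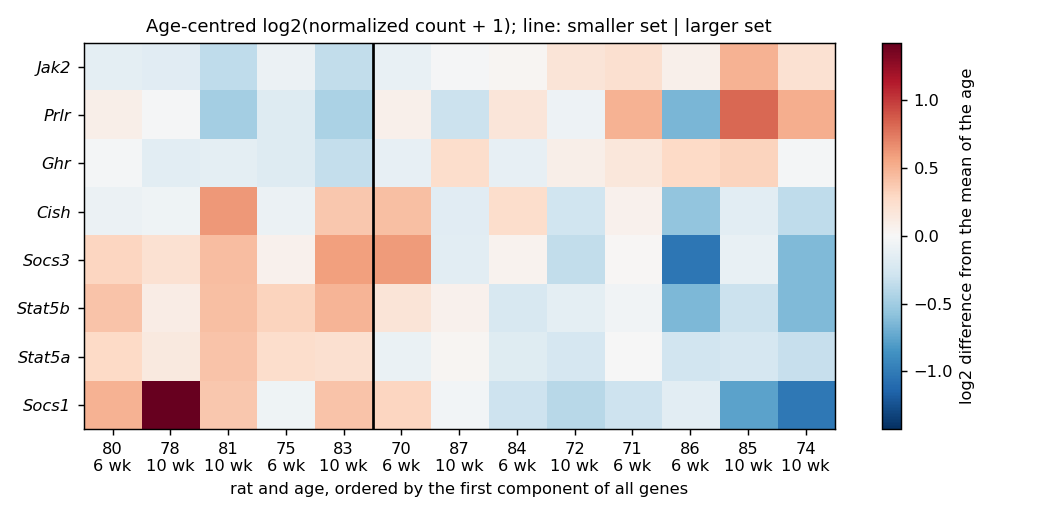
Age-centred log2(normalized count + 1) of the 8 genes (vertical axis) in 13 rats (horizontal axis), ordered by the first component of all genes, with a line between the smaller and the larger set and colour for the log2 difference from the mean of the age. Stat5a and Stat5b are above their means in all 5 rats left of the line, and Jak2 is below its mean in all 5.

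Marker lists moved with several of the genes, in 13 of 80 relations with an adjusted permutation p under 0.05. The share of all genes that follow the same lists was not computed, so these relations may not be particular to the pathway genes. Prlr followed the hormone-sensing luminal list, which holds estrogen and progesterone receptors and does not hold Prlr itself (r = 0.79, rho = 0.67, adjusted permutation p = 0.0257 and 0.112, r = 0.67 without the 2 farthest rats, r = 0.93 in the larger set). The score of this list did not separate the ages, with 0 of 5 genes DE. Cish followed the keratin and claudin genes of luminal cells (r = 0.91, rho = 0.96, adjusted permutation p = 0.0008 and 0.0012, r = 0.86 without the 2 farthest rats, r = 0.95 in the larger set). Socs3 did so as well (r = 0.92, rho = 0.78, adjusted permutation p = 0.00297 and 0.0491, r = 0.80 without them, r = 0.93 in the larger set). The basal epithelial list, of which 0 of 8 genes were DE, moved with the same inhibitors. Its r was 0.90 with Socs3 (rho = 0.78, adjusted permutation p = 0.00297 and 0.0491, r = 0.75 without the 2 farthest rats, r = 0.89 in the larger set) and 0.80 with Cish (rho = 0.69, adjusted permutation p = 0.0297 and 0.0970, r = 0.65 without them, r = 0.88 in the larger set).

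The STAT5 genes followed the basal list too. For Stat5b r was 0.88 (rho = 0.87, adjusted permutation p = 0.00107 and 0.0178, r = 0.75 without the 2 farthest rats, r = 0.87 in the larger set). For Stat5a it was 0.75 (rho = 0.82, adjusted permutation p = 0.0257 and 0.0330, r = 0.64 without them, r = 0.79 in the larger set). Ghr ran against this list (r = -0.72, rho = -0.74, adjusted permutation p = 0.0491 and 0.0674, r = -0.77 without them, r = -0.46 in the larger set).

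Immediate-early genes such as Fos, Jun and Egr1 are known to rise when tissue is handled, though none of these was DE. Of the 9 genes of this list 2 were DE, Atf3 and Zfp36, both higher at 10 weeks. The score of the list followed Stat5b (r = 0.92, rho = 0.91, adjusted permutation p = 0.00107 and 0.00427, r = 0.90 without the 2 farthest rats, r = 0.82 in the larger set) and Stat5a (r = 0.90, rho = 0.94, adjusted permutation p = 0.00297 and 0.0012, r = 0.86 without them, r = 0.64 in the larger set). It followed Socs3 too (r = 0.88, rho = 0.85, adjusted permutation p = 0.00297 and 0.0211, r = 0.89 without them, r = 0.94 in the larger set). Socs1 passed by r alone (r = 0.71, adjusted permutation p = 0.0297, rho adjusted p = 0.0657), and Jak2 ran against the score (r = -0.74, adjusted permutation p = 0.0297 and 0.0320 for rho), at -0.28 in the larger set. The part of handling or of cell mixture in the values of the STAT5 genes and inhibitors was not tested.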

How the data were processed

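RNA-seq libraries of 13 rats were compared between ages. Estimated counts came from RSEM 1.2.22, and the submitters' notes name rn5 while the methods name rn6 for other data. The annotation is not given in the sources used here. The authors deposited each library scaled by an unknown factor and rounded to whole numbers, so the unit was taken as a score and no count test was run. The authors' own comparison columns (fold changes, p-values, abundance and a location word) were not used. All 14790 genes, each with a mean of at least 1, were fitted with limma (version 3.58.1, run under R 4.3.3) after a log2 transform of the normalized count plus 1, with no covariate. P-values were two-sided and Benjamini-Hochberg adjusted over all genes, with a threshold of 0.05. The fit was tested on simulated data. A result for 1 pathway gene is not reported here.

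The genes, pathway lists and marker lists were chosen with earlier results of these data known. Named were all 9 genes, both caseins, per pathway list up to 4 DE genes with the largest change, the most abundant marker genes, and for each gene the 2 whose age-centred values were most like it. Correlations used values with the mean of each age removed, except the relations with the caseins, where age means were kept. The p-values of the centred correlations came from 100000 permutations within ages. Those of the casein relations over all rats came from 100000 permutations that shuffled rats across ages. Tests within 1 age used all arrangements. Ratios were tested with exact permutation tests. The labels do not say whether rats were processed in batches, so p-values measure the spread between these rats. Depth is unknown, so no counting intervals are given. Promoters were matched by symbol for 8 of 8 genes. Alternatives were other scalings, limma-trend, a pseudocount of 0.1, a floor of 10 for each rat, each rat left out, and the larger set. Sample quality weights, the smaller set, and the relations among genes and with marker lists were added after the data were seen. Python 3.11.15, numpy 2.4.6, pandas 2.3.3 and scipy 1.17.1 were used.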

Additional observations from a re-analysis of the deposited data

Results flagged for a closer look

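Of 52 groups of values examined, 4 had a rat far from the others of its age, where chance gives about 1 in 20. Rat 78 at 10 weeks held 190 normalized counts of Socs1. Rat 81 at 10 weeks held 13439 normalized counts of Csn2 and 153585 of Csn1s1. Rat 86 at 6 weeks had a log2 ratio of Prlr to Ghr of -0.117, the lowest of its age.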

How the results depend on the processing

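None of the 8 genes was DE under any of 22 alternatives, with a lowest adjusted p of 0.0628 (Ghr), and 0 relations with the caseins passed under those run for them. The count of DE genes was 5647 with sample quality weights, 0 in the smaller set (where 1976 had an unadjusted p under 0.05 in limma) and 1411 to 2680 with 1 rat left out. DE pathway genes were 26, 0 and 8 to 14. Rats 70, 84 and 87 moved the first count by over 1.5 times, and rats 70, 72, 74 and 87 the second. The STAT5 ratio differed by -0.38 in the larger set (exact permutation p = 0.0857) and by -0.44 to -0.31 with 1 rat left out. The Prlr to Ghr difference was -0.035 in the larger set and -0.020 to 0.26 with 1 rat left out, turning without rat 87. Cish turned to 0.042 with library size scaling, 0.23 with quality weights, 0.27 in the larger set and -0.091 to 0.11 with 1 rat left out. Prlr turned to 0.058 with weights, 0.14 in the smaller set and 0.0031 without rat 85, with -0.23 the lowest when 1 rat was left out. In the smaller set Socs1 was -0.31, Socs3 -0.0041, Csn2 -4.26 and Csn1s1 -1.95. Csn2 turned to -0.027 without rat 84 and -0.048 without rat 86, with 2.18 the highest (without rat 81). With 1 rat left out Socs1 ran from 0.041 (without rat 74) to 0.45 (rat 78), Socs3 from 0.11 (rat 70) to 0.43 (rat 86), Stat5b from 0.13 (rat 74) to 0.36 (rat 86), Stat5a from -0.19 (rat 80) to -0.066 (rat 81), Jak2 from -0.27 (rat 81) to -0.13 (rat 85), Ghr from -0.26 (rat 86) to -0.15 (rat 85) and Csn1s1 from 0.033 (rat 86) to 0.99 (rat 81). Library size scaling ended the calls of Stat3 (adjusted p = 0.159), Sos1 (0.0507) and Socs5 (0.0992). The larger set ended those of Il11ra1 (0.0504), Stat3 (0.174), Socs5 (0.0558) and Nfib (0.0704), and sample quality weights that of Stat3 (0.0805). The causes were not tested. Low values limit Socs1 and Csn2. No paired analysis was possible because each rat has its own number and the ages share none.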

Other observations

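By likeness of age-centred values over the 13 rats, each gene had 2 nearest genes, given as a description. Prlr was nearest to Sdc4 (r = 0.932) and Tnfaip8 (r = 0.890), and Ghr to Rnf125 (r = 0.913) and Rbm18 (r = 0.910). Jak2 was nearest to Gnai3 (r = 0.971) and Itch (r = 0.966). Stat5a was nearest to Ppp1r13l (r = 0.967) and Ell (r = 0.965), and Stat5b to Tns2 (r = 0.973) and Plxna1 (r = 0.967). Cish was nearest to Mrpl54 (r = 0.980) and Gpi (r = 0.970), Socs1 to Kif7 (r = 0.937) and Pdxk (r = 0.928), and Socs3 to Ntmt1 (r = 0.984) and Ltbr (r = 0.972).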
